A study of Mus musculus with 8 samples.

Results

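The regions described here are stretches of open chromatin that were called as a peak in wild-type cortical neurons after depolarisation with KCl and in none of the other 3 conditions of the study. They were chosen by merging the 4 deposited peak lists on chromosomes 1 to 19 wherever peaks overlapped by at least 1 bp, and by keeping each merged region that held a peak of the WT KCl list and no peak of another list. This left 7667 of 60611 merged regions, 12.6%, each made of 1 peak, and they took up 38.6% of the 19847 WT KCl peaks on these chromosomes. By the same rule 17794 regions (29.4%) were found in the WT basal list alone, 7665 (12.6%) in cKO basal alone and 10223 (16.9%) in cKO KCl alone. Every list thus held regions of its own, and the values of these other sets are given beside those of WT KCl alone where they bear on a result.

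The assay was ATAC-seq, where a transposase places sequencing adapters into accessible DNA, and the cells were primary cultured cortical neurons of E16.5 mouse embryos. Cells labelled "Brg1 WT" (WT) and cells labelled "Brg1-cko (BAF53bCre Brg1F/F)" (cKO), in which Cre under BAF53b, a gene of the neuronal BAF complex, acts on 2 floxed Brg1 alleles, were each studied in a basal state, with no KCl, and after 1 h in 50 mM KCl on day 6 in vitro. The depolarised cultures had received 1 µM TTX and 100 µM APV, blockers of sodium channels and NMDA receptors, on day 5. The labels do not say whether basal cultures received these blockers, nor whether WT cells carried Cre or floxed alleles. Each condition had 2 libraries of 50000 cells and 1 deposited peak list, so no value has a replicate error, no test compares the conditions, and intervals cover counting error only.

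Raised external potassium depolarises neurons and lets calcium in through voltage-gated channels. Calcium-dependent kinases then act on factors such as CREB, SRF and MEF2, which switch on rapid response genes such as Fos, Egr1 and Nr4a1, and the Fos and Jun proteins (AP-1) bind enhancers of later genes. Brg1, encoded by Smarca4, is an ATPase of the BAF complex, which slides and evicts nucleosomes, and AP-1 has been described to recruit BAF to enhancers. The rule picks candidates for sites that open on depolarisation and need Brg1. A peak in 1 list and not in the others is a threshold call, and whether any region was gained or needed Brg1 was not tested.

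The peak lists carry no sequence, but 345 promoter windows of the RefSeq table for GRCm38.p6, each running from 250 bases before to 50 bases after an annotated start, were overlapped by a WT KCl alone region. They belong to 313 genes. The windows below are shown because they lie under the protein-coding gene-end regions of highest fold (the deposited ratio of fragments to local background at the summit) for which capitals mark a match. They are written 5′ to 3′ on the gene's strand, and capitals mark matches of 5 motifs on either strand: ETS CCGGAAG, NF-Y CCAAT, AP-1 TGANTCA, and the NRF1 and YY1 motifs. Matches of the SP/KLF, bHLH and CTCF letters named further on are frequent and are not marked. Nol10 encodes a nucleolar protein, Cby1 a basal body protein that binds β-catenin, Setdb1 a histone H3 lysine 9 methyltransferase, Nasp a histone chaperone and Ndufa9 a subunit of respiratory complex I.
Nol10, chr12:17348243-17348542, + strand: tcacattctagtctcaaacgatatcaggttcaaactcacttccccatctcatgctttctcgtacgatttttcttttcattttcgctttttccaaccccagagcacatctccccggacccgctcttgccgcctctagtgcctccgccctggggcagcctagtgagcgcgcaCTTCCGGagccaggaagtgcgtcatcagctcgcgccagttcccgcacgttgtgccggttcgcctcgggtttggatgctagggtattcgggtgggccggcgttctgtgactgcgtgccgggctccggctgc
Cby1, chr15:79658977-79659276, + strand: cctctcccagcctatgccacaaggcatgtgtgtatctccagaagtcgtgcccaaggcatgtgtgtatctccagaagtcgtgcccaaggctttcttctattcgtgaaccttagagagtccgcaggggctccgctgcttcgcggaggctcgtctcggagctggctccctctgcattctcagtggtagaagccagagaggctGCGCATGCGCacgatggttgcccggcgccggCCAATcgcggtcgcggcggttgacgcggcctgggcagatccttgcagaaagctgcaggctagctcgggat
Setdb1, chr3:95357153-95357452, - strand: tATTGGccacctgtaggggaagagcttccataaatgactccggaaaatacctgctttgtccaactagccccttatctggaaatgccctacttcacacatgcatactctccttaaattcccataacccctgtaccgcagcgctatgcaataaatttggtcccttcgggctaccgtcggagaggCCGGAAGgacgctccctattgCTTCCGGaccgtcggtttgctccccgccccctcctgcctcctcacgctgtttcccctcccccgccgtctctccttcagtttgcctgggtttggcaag
Nasp, chr4:116627902-116628201, - strand: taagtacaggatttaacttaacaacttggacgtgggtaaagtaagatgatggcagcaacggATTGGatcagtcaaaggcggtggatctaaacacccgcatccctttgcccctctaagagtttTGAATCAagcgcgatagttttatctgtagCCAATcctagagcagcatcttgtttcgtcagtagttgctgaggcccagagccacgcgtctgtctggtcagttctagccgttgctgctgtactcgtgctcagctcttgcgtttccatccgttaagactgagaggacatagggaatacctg
Ndufa9, chr6:126849095-126849394, - strand: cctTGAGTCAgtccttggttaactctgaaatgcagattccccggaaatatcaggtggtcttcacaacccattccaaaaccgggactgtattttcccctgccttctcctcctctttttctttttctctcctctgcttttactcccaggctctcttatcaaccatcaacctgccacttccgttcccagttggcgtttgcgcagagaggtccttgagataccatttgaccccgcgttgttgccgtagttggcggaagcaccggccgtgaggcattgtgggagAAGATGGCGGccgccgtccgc

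In these 5 windows the peak summit lay between 74 bases (Nol10) and 2 bases (Cby1 and Ndufa9) before the annotated start. The Nol10 window had 1 ETS match, the Cby1 window 1 NRF1 and 1 NF-Y match, and the Setdb1 window 2 ETS matches and 1 NF-Y match. The Nasp window had 1 AP-1 and 2 NF-Y matches, and the Ndufa9 window 1 AP-1 and 1 YY1 match. The AP-1 match of Ndufa9, the NF-Y match of Setdb1 and the upstream NF-Y match of Nasp lay in the window but outside the called region. The windows of Ddx46, an RNA helicase of the spliceosome, and Cdca7, a chromatin protein, also lay under regions of fold above 3.8 and held no match to these 5 motifs. A match is a run of letters in a window, not a bound site, and a window without one says nothing about the factor.

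Of the promoter windows overlapped by a WT KCl alone region, 6.09% (95% exact interval 3.81 to 9.15) held the AP-1 letters, against 7.85% of all 31365 promoter windows and 7.21%, 4% and 8.82% of those under regions of WT basal, cKO basal and cKO KCl alone. The CRE letters TGACGTCA, the site of CREB, were in 1.74% (0.641 to 3.75) against 1.83% of all windows and 1 to 2.99% for the other single-list sets. The MEF2 motif was in 1.74% against 3.10% and 0.333 to 1.89%, and SRF's CArG box in 0.87% against 1.58% and 0.667 to 1.8%. For the motifs of activity-regulated factors that these windows could be searched for, the share thus lay within counting error of that of all promoters, apart from 1 of the 2 EGR forms. GCGTGGGCG was in 7 of 345 windows, 2.03% (0.82 to 4.14), against 0.606% of all windows and 1.37% of windows under regions of all 4 lists. It was in 0.416% (0.0859 to 1.21) of windows under WT basal alone regions, in none under cKO basal alone (upper limit 1.22%) and in 1.26% (0.545 to 2.47) under cKO KCl alone, so the intervals overlap. GCGGGGGCG was in 4.06% of WT KCl alone windows, 2.94% of all windows and 3 to 4.72% of the other single-list sets. The 2 EGR forms differ by 1 letter, so no run of letters counted for both. Windows of the same gene can overlap, so the intervals may be too narrow, and 17 motifs were searched. Windows under WT KCl alone regions were also more often CpG-rich than all windows, 53.9% against 34.1%.

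For the motifs that follow, the intervals overlapped those of the other single-list sets. The SP/KLF letters GGGCGG were in 51.6% (46.2 to 57.0) of the windows under WT KCl alone regions, in 51.3 to 54% for the other single-list sets, in 36.0% of all windows and in 76.1% of windows under regions of all 4 lists. In the same order ETS matches were in 12.2% (8.92 to 16.1), 9.33 to 11.8%, 9.00% and 20.4%. The NF-Y letters were in 31.6% (26.7 to 36.8), 25.3 to 30.2%, 37.3% and 43.0%. The bHLH letters CAGATG were in 15.4%, 12.4 to 15.3%, 17.2% and 8.38%, and CAGCTG in 20%, 17.9 to 22.7%, 16.3% and 14.2%. The short CTCF letters CCCTC were in 81.2%, 76.4 to 80.4%, 66.3% and 79.3%, while the core CTCF motif and the NFI motif were in none of the 345 windows and in under 0.1% of all. CpG-rich windows, with a GC content of at least 50% and an observed to expected CpG ratio of at least 0.6, made up 53.9% (48.5 to 59.3) of those under WT KCl alone regions. The share was 34.1% over all windows, 44.8% (41.1 to 48.5) for WT basal alone, 43.3% (37.6 to 49.1) for cKO basal alone, 51.7% (47.7 to 55.6) for cKO KCl alone and 87.2% (86.4 to 88) for regions of all 4 lists. The 2 KCl lists thus had the higher CpG-rich shares among regions of 1 list, and the intervals of WT KCl alone and WT basal alone met at 48.5%.

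The regions were weak peaks. Their fold, which took part in choosing them through the peak call and is given as a description, ran from 1.76 to 4.49 with a median of 2.82 and quartiles of 2.60 and 3.03. The other 12180 WT KCl peaks had a median fold of 3.25 and reached 17.4. The regions were 200 to 685 bp wide with a median of 234 bp, against 338 bp for the other WT KCl peaks. Fold values are the authors' own. The share of WT KCl peaks that were found in no other list fell with fold. When the peaks were ranked by fold and cut into 10 bins of equal number, it was 63.8% in the lowest bin, 45% in bin 6, 5.74% in bin 9 and 0.202% in the highest bin, where 4 of 1984 peaks were regions of WT KCl alone. Of 2692 WT KCl peaks with a fold of at least 4, 21 were (0.78%), and of 1412 with a fold of at least 4.5 none was, which allows a share of up to 0.212%.

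**Figure D1:**
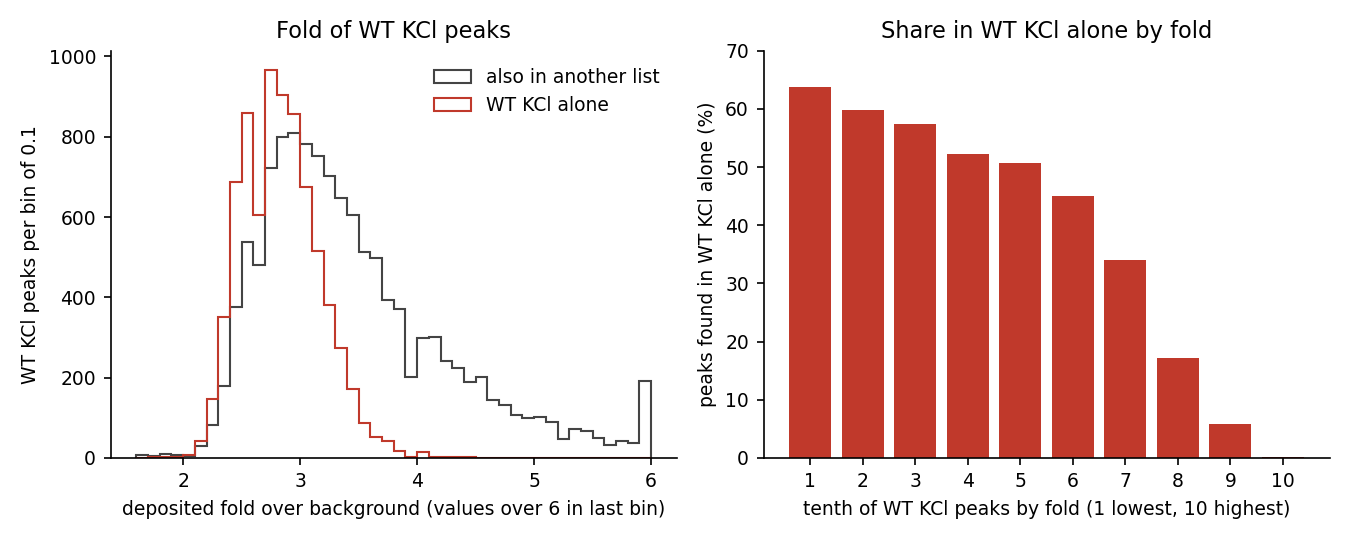
Left, number of WT KCl peaks by deposited fold over local background (x axis, bins of 0.1), for regions found in WT KCl alone (red) and for WT KCl peaks that overlap another list (grey). Right, percentage of WT KCl peaks found in WT KCl alone in 10 bins of equal number by fold; the share fell from 63.8% in the lowest bin to 0.202% in the highest.

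The number of fragments stacked at each summit was solved from the deposited fold and p-value. It ran from 20 to 72, with a median of 27 and quartiles of 25 and 30, against a median of 33 and a highest value of 319 for the other WT KCl peaks. A count of 27 has an exact Poisson 95% interval of 17.8 to 39.3. At its most frequent background the WT basal list held peaks from 21 fragments upward, cKO basal from 22 and cKO KCl from 20. Of the 7667 regions, 742 (9.68%) had a lower interval limit above 22, the highest of these 3 entry levels, and 6649 of the other 12180 WT KCl peaks (54.6%) did. These levels hold at the most frequent background, while the local background of the regions ran up to 34.88 fragments. Where it is raised a call needs more than 22 fragments, so both shares may be too high. Regions of WT basal alone had a median pileup of 29, of cKO basal alone 30 and of cKO KCl alone 28. The most frequent background, which follows the depth of a list, was lowest for WT KCl at 8.23 fragments, against 8.36 to 9.47 in the other lists.

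**Figure D2:**
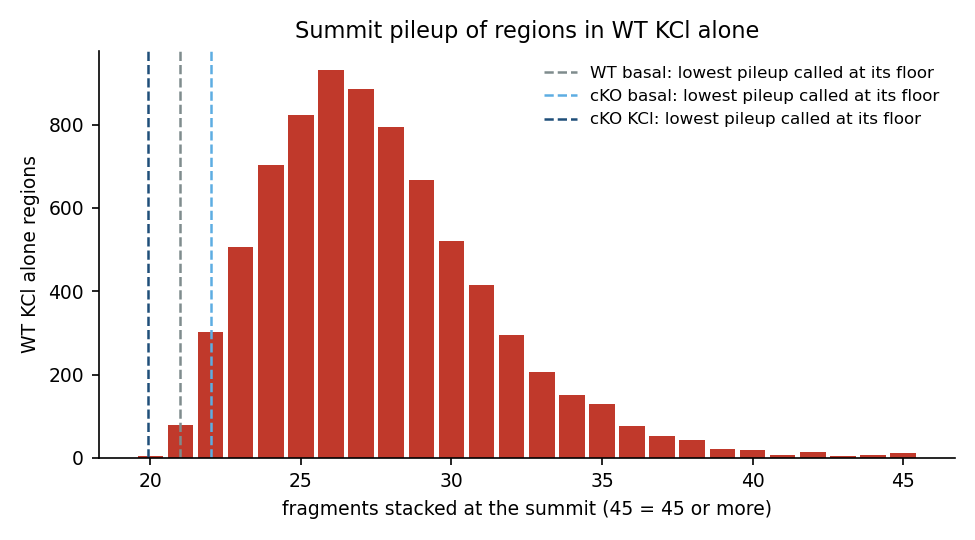
Number of WT KCl alone regions (y axis) by fragments stacked at the summit (x axis, the last bar holding 45 or more). Dashed lines give the lowest pileup at which each other list holds a peak at its most frequent background, 21 for WT basal, 22 for cKO basal and 20 for cKO KCl; the median of the regions is 27.

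At the rule's edge, some regions lay within 2 bp of another list's peak. The region at a gene end of Gnas, which encodes the stimulatory G protein alpha subunit (fold 2.47), abutted a WT basal peak. The region inside Tanc1, a postsynaptic scaffold gene (3.25), abutted a cKO KCl peak and that at Rbmxl2 (2.49) a cKO basal peak, while that near Zfp516 (3.54) lay 2 bp from a cKO basal peak. Just outside, WT KCl peaks that overlapped another list by 1 to 3 bp lay inside Tafa2 (2.71), near Mmp16 (2.92), near Ssx2ip (2.49), near Rph3a (2.75) and inside Mfsd1 (2.60). Of the 11591 merged regions that WT KCl shared with another list, 28 overlapped it by at most 10 bp.

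Position was not used by the rule. A gene end, meaning up to 1 kb from the first or last annotated base of a coding gene, held 813 WT KCl alone regions, 10.6% (9.92 to 11.3). A further 3658 lay inside genes (47.7%, 46.6 to 48.8) and 3196 between genes (41.7%, 40.6 to 42.8). These classes cover 3.04%, 38.3% and 58.6% of the genome. Regions of WT basal alone were at gene ends in 9.83% (9.40 to 10.3), of cKO basal alone in 10.4% (9.72 to 11.1) and of cKO KCl alone in 12.2% (11.6 to 12.9). WT KCl regions shared with another list were at a gene end in 62.7% (61.8 to 63.6) and regions of all 4 lists in 75.8% (74.8 to 76.8). The gene-end share of WT KCl alone regions was thus within 2 percentage points of that of each other single-list set. The gene-end share was 11.2% for regions of fold up to the median and 9.9% for those above it. Of the 790 gene-end regions off chromosome 18, for which starts were listed, 442 (55.9%) lay within 1 kb of a listed start.

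**Figure D3:**
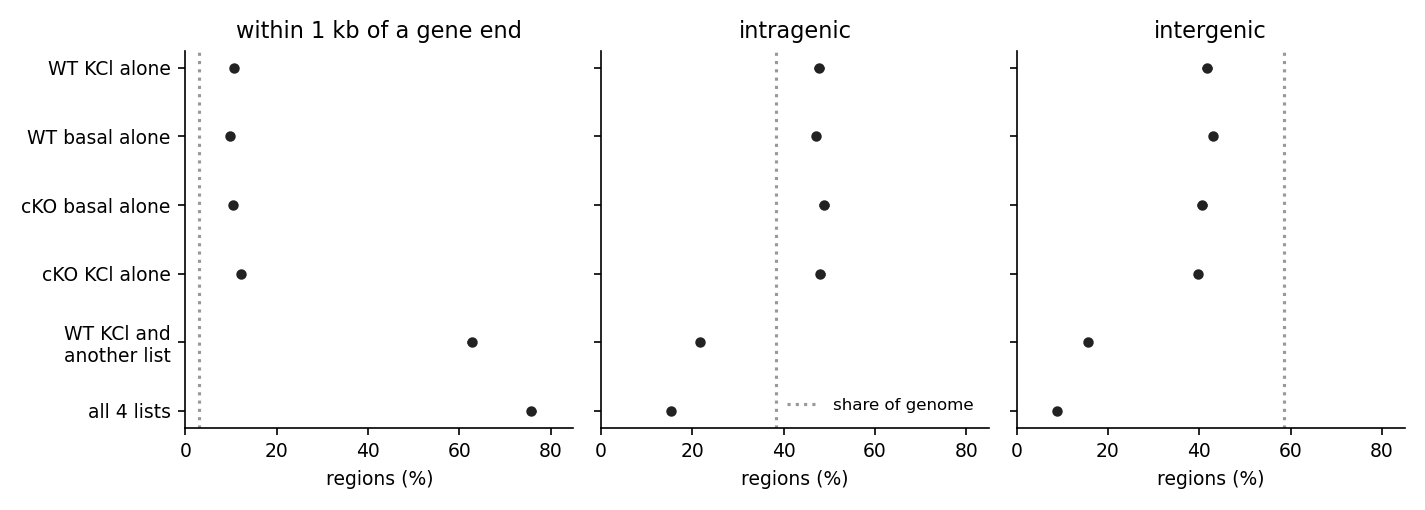
Percentage of regions (x axes) within 1 kb of a gene end, inside a gene, or between genes, for regions of each list alone, WT KCl regions shared with another list, and regions of all 4 lists. Points are shares with exact 95% intervals, mostly narrower than the point, and dotted lines the share of the genome; regions of 1 list alone sit at 9.83 to 12.2% at gene ends, shared WT KCl regions at 62.7%.

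Away from coding gene ends, 439 of 6854 WT KCl alone regions (6.41%, 5.84 to 7.01) lay at an end of a non-coding gene, against 6.70 to 7.11% in the other single-list sets and 15.5% of shared WT KCl regions. Density per chromosome ran from 2.49 regions per Mb on chromosome 3 to 3.85 on chromosome 11, which was also the densest chromosome for regions of each other list alone. The median gap between neighbouring regions was 139 kb, against 131 kb for the equally large cKO basal alone set, and 380 gaps (4.97%) were within 10 kb, against 5.94%. The closest pair lay 101 bp apart at Tead4, which encodes a TEAD factor of the Hippo pathway (chr6:128299969-128300168, fold 2.54, and chr6:128300270-128300488, fold 2.57). The next closest pairs lay at Dab2ip, a Ras GTPase-activating protein gene (139 bp), Gpr39, a zinc receptor gene (144 bp), Nkx6-1, a homeobox gene of ventral neural tube and pancreas (185 bp), and Gpam (189 bp). Each of these pairs would count as 1 region if peaks up to 500 bp apart were joined.

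Of the WT KCl alone regions, 1106 (14.4%, 13.6 to 15.2) lay within 1 kb of a peak of another list. WT basal had a peak this close to 711 regions (9.27%), cKO KCl to 551 (7.19%) and cKO basal to 449 (5.86%), and some regions were near several lists. Of WT basal alone regions 12.1% lay this close to another list, of cKO basal alone 15.8% and of cKO KCl alone 15.5%. The share differed by position: 334 of the 813 gene-end regions (41.1%) had another list's peak within 1 kb, but 12.1% of those inside genes and 10.3% of those between genes. In 199 regions (2.60%) all 3 other lists had a peak within 1 kb. At the other extreme 287 regions (3.74%) lay over 100 kb from any peak of another list. The farthest was chr12:62533034-62533255, between genes 675 kb from Lrfn5, a synaptic adhesion gene, with a fold of 2.82 and 1006 kb to the nearest other peak. Regions more than 10 kb from any other list's peak had a median fold of 2.82 and those within 1 kb 2.80.

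Of the 10 gene-end regions of highest fold, 4 had no peak of another list within 11 kb. At Nol10 (chr12:17348320-17348567) the fold was 4.44 and the pileup 40 fragments, and the nearest peaks of WT basal, cKO basal and cKO KCl lay 23098, 56175 and 81403 bp away. At Cby1 (chr15:79659058-79659372) the fold was 4.03 with 42 fragments, and the other lists' nearest peaks lay 11121 to 11371 bp away. At Setdb1 (chr3:95357146-95357353) it was 3.9 with 35 fragments, and the other lists' nearest peaks lay 41530 to 41720 bp away. At Ndufa9 (chr6:126848992-126849305) it was 3.79 with 34 fragments, and they lay 15204 to 90079 bp away. These 4 promoters thus had a called peak in WT KCl only, and the depth of any uncalled signal in the other lists is not known from the files.

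Another 4 of the 10 had a peak of another list within 1 kb. At Nasp (chr4:116627830-116628104, fold 3.79) the WT basal list had a peak 206 bp away with a fold of 3.4, and cKO KCl one 262 bp away with a fold of 3.21. At Zmym2, which encodes a zinc finger protein of a histone deacetylase complex (3.91), WT basal had a peak 379 bp away and cKO KCl one 852 bp away. At Usp43, a deubiquitinase gene (3.76), where the region lay at the gene end away from the listed starts, cKO KCl had a peak 175 bp away. At Plch1, a phospholipase C gene (3.9), cKO KCl had a peak 499 bp and WT basal one 591 bp away. The last 2, Ddx46 (chr13:55634858-55635391, 4.01) and Cdca7 (chr2:72476068-72476346, 3.85), had their nearest other peak 3673 and 3591 bp away. Of all gene-end regions 41.1% had another list's peak within 1 kb.

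Away from coding gene ends the highest folds were inside Trim50, a ubiquitin ligase gene (chr5:135357648-135357913, fold 4.49, 41 fragments), near Sptssa, a serine palmitoyltransferase subunit gene (4.33, 97.8 kb away), and inside Cntrl, a centriole gene (chr2:35132071-35132367, 4.33). The Cntrl region covered a listed start inside the gene. Further ones lay near Nox3, an NADPH oxidase gene of the inner ear (4.22, 305 kb away), inside 1700025G04Rik (4.11), near Fam43a (4.07), and inside Sec24d, a coat protein gene of vesicle export (4.04), Slc7a6, an amino acid transporter gene (4.03), App, the amyloid precursor protein gene (4.01), and D2hgdh (4.01). At Slc7a6 the other 3 lists had peaks 89 to 160 bp away and at App 591 to 631 bp away. The Nox3, Sptssa and Cntrl regions had none within 16 kb. The Slc7a6 and Sec24d regions lay 389 and 420 bp from a listed start. Of all WT KCl alone regions inside genes and off chromosome 18, 119 lay within 1 kb of a listed start.

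Inside genes, the 3658 regions were spread over 2697 host genes with a median length of 75.4 kb, against 17.5 kb over all 20665 protein-coding genes. Host genes were of like length for regions of the other single lists (58.3 to 70.7 kb) and for regions of all 4 lists (73.4 kb). Long genes led by count, with lengths from 243.9 kb (Ppm1l) to 1643 kb (Csmd1) among those named here. Agap1, an Arf GTPase-activating protein gene, Asic2, an acid-sensing channel gene, Camta1, a calmodulin-binding transcription activator gene, Dscam, an adhesion gene of neurite self-avoidance, Ptprn2, a dense-core vesicle phosphatase gene, and Tenm3, a teneurin gene of synapse wiring, had 7 regions each. Auts2, Cdh13, Csmd1, Foxp1, Grid1, Msi2, Ppm1l and Ptprg had 6 each. Genes of at least 500 kb held 8.47% of the regions inside genes, against 9.00% for WT basal alone, 7.82% for cKO basal alone and 9.64% for cKO KCl alone.

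These counts differed from gene to gene between lists. Dscam had 7 regions of WT KCl alone, 4 of WT basal alone, 2 of cKO basal alone and 3 of cKO KCl alone, with folds from 2.33 to 3.32 in WT KCl. Ppm1l, a protein phosphatase gene of 243.9 kb and the densest of the 14 at 2.46 regions per 100 kb, had 6, 1, 2 and 4 in the same order. Csmd1, a complement regulator gene, had 6, 2, 0 and 5, and Ptprg, a receptor phosphatase gene, 6, 2, 3 and 1. Camta1 had 7, 14, 7 and 6, Ptprn2 7, 16, 3 and 13, and Cdh13 6, 16, 5 and 7, so that WT basal, the longest list, had most there. The genes were chosen by their WT KCl count, so a high WT KCl count among them is no finding.

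The 4 lists differ in how far they reach genes, so each gene list is read against that reach. A WT KCl alone region lay within 50 kb of 9563 of 20665 protein-coding genes, 46.3%, and reached 64.9% of genes of at least 100 kb and 36.6% of genes under 10 kb. For WT basal alone the shares were 69.8% of all, 83.8% of long and 59.4% of short genes. For cKO basal alone they were 46.7%, 61.7% and 37.8%, and for cKO KCl alone 53.5%, 73.3% and 43.3%. At a gene end a WT KCl alone region was found for 875 genes, 4.23%, against 8.72%, 4.12% and 6.48%.

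Rapid response genes, transcribed within minutes of neuronal activity without new protein, had 20 WT KCl alone regions within 50 kb, near 14 of the 20 genes (70%, 45.7 to 88.1). WT basal alone regions reached 19 of them, cKO basal alone 11 and cKO KCl alone 15. The list had a median gene length of 3.62 kb. WT KCl alone regions reached 46.3% of all genes and 36.6% of genes under 10 kb. For genes under 10 kb the share was 59.4% for WT basal alone, 37.8% for cKO basal alone and 43.3% for cKO KCl alone. With a window of 10 kb the WT KCl count was 3 of 20 (Nr4a1, Ier2 and Egr4), where 23.6% of all genes had a region. None of the 20 had a WT KCl alone region at a gene end, which allows a share of up to 15% and is near the 4.23% of all genes. WT basal alone also had 0 such genes, cKO basal alone 1 and cKO KCl alone 4. Jun, Junb, Egr1, Arc, Klf4 and Ccn1 had no WT KCl alone region within 50 kb.

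At Fos, which encodes an AP-1 subunit, 1 WT KCl alone region lay 10.4 kb beyond the gene (chr12:85487639-85488005, fold 2.77, 30 fragments). It lay 1342 to 1382 bp from a site with a peak in all 4 lists, where WT peaks had folds of 3.17 (basal) and 3.15 (KCl) and cKO peaks 2.69 (basal) and 3.48 (KCl). At Nr4a1, an orphan nuclear receptor gene, 1 region lay inside the gene (chr15:101273066-101273272, 2.68, 38 fragments), 4194 bp from the nearest peak of another list, and 1 lay 20.3 kb away at a gene end of Grasp (2.60). At Egr2, a zinc finger factor gene, regions lay 16.2 kb (chr10:67558430-67558669, 3.03) and 22.0 kb (chr10:67512246-67512449, 2.48) away on opposite sides of the gene. Near Ier2 a region lay 4.30 kb away (chr8:84656785-84657026, 2.82), with WT basal and cKO KCl peaks 875 and 926 bp from it.

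Most other regions of this group sat in or at neighbouring genes. Fosb, another AP-1 gene, had 3, inside Ercc1 (fold 3.14) and Vasp (2.26) and at an end of Ppm1n (2.76). Egr3 had regions at Bin3 (3.21) and inside Pebp4 (2.36), Egr4 one at Fbxo41 (2.59), and Gadd45b, a gene of the stress response, regions at Lmnb2 (2.90) and Gng7 (2.39). Npas4, a bHLH factor gene specific to neuronal activity, had one 27.5 kb away at Slc29a2 (2.63). Single regions lay near Dusp1 (2.37), a phosphatase of MAP kinases, Btg2 (2.28), Maff (2.63), Amigo3 (2.28) and Fbxo33 (3.25). The folds of the 20 regions ran from 2.26 to 3.25, inside the range of all WT KCl alone regions.

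**Figure D4:**
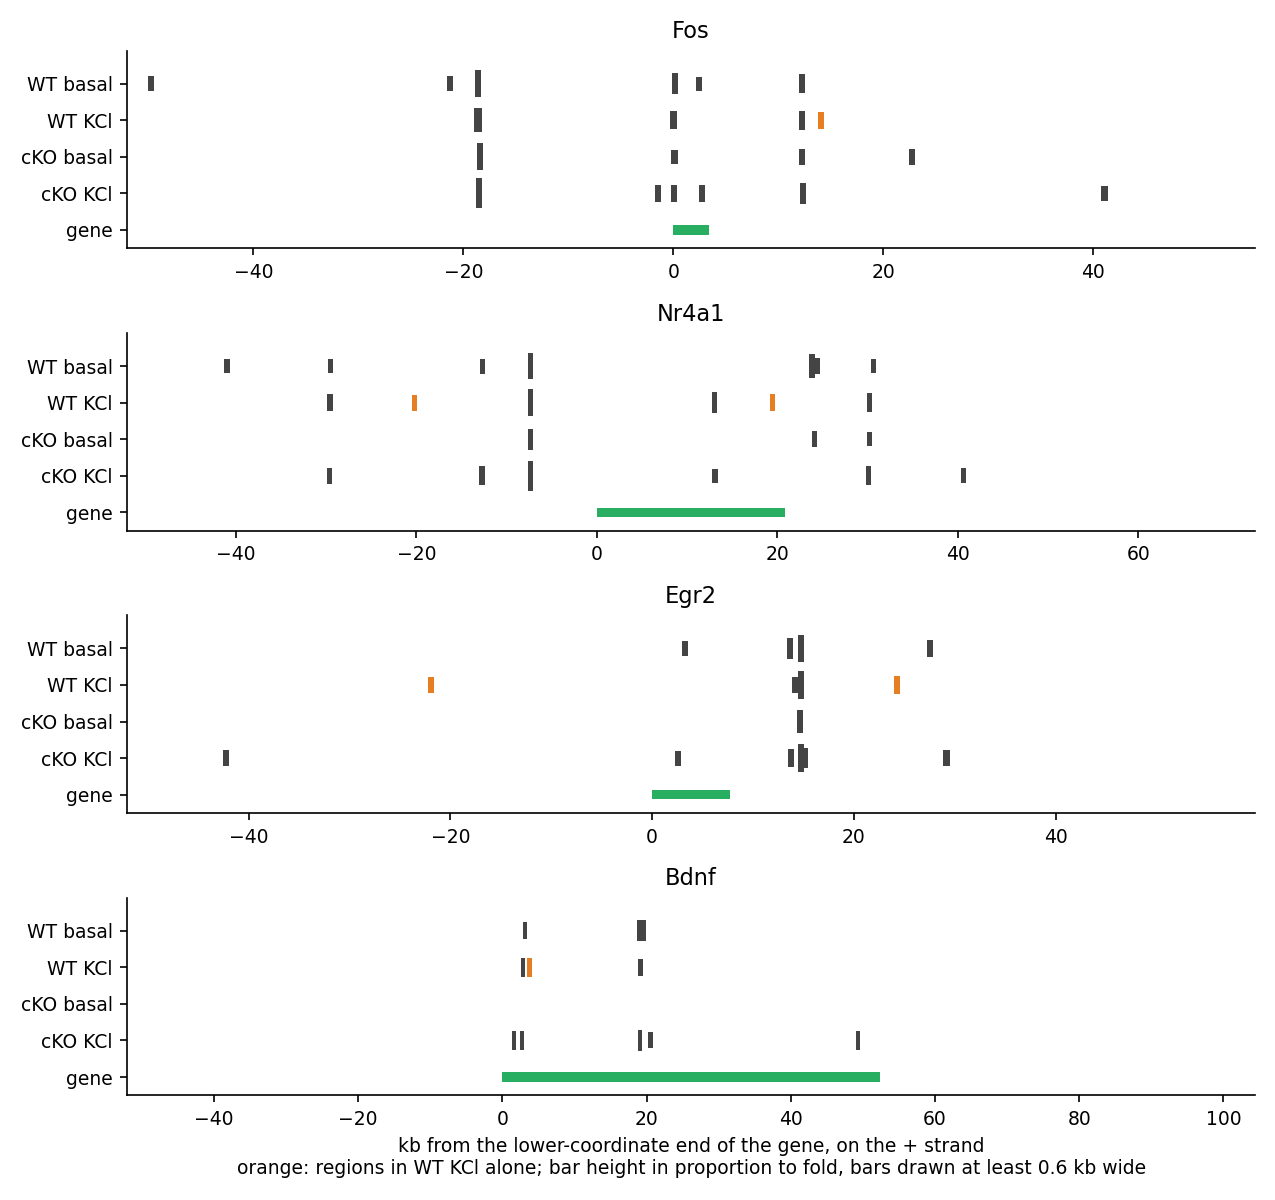
Deposited peaks within 50 kb of Fos, Nr4a1, Egr2 and Bdnf, 1 row per list, by distance in kb from the lower-coordinate end of the gene (green bar); bar height is in proportion to fold and orange marks WT KCl alone regions. Each locus has 1 or 2 orange regions among 3 to 6 WT KCl peaks.

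These 4 loci, chosen after their values were seen, had as many peaks in the cKO KCl list as in WT KCl or more, and the cKO KCl list was also the longer, with 24947 peaks against 19847. Around Fos the WT lists had 6 (basal) and 4 (KCl) peaks and the cKO lists 4 and 6. In the same order Nr4a1 had 7, 6, 3 and 6, Egr2 4, 4, 1 and 6, and Bdnf 2, 3, 0 and 5. Inside Nr4a1 a peak 13 kb from the lower-coordinate end of the gene was present in both KCl lists (fold 3.38 in WT and 2.28 in cKO) and in neither basal list. The WT KCl alone region inside Nr4a1 lay 6108 bp from the cKO KCl peak of this site and 6220 bp from the nearest listed start. The side on which that start lies is not given here, so the site of both KCl lists may be a promoter inside the gene. WT KCl alone regions made up 1 of the 4 WT KCl peaks around Fos, 2 of 6 around Nr4a1, 2 of 4 around Egr2 and 1 of 3 around Bdnf.

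Delayed response genes, which follow the rapid ones and include synaptic effectors, had a WT KCl alone region within 50 kb in 9 of 20 cases, against 14 for WT basal alone, 6 for cKO basal alone and 10 for cKO KCl alone. Of all protein-coding genes, 46.3% had a WT KCl alone region this near. Bdnf, a neurotrophin gene, had 1 inside the gene (chr2:109678141-109678346, fold 3.14, 32 fragments). WT basal had a peak 363 bp from it (2.86) and cKO KCl one 685 bp from it (3.12), while the nearest cKO basal peak was 212310 bp away. Nr4a2 had a region inside the gene (chr2:57116808-57117016, 3.09), with WT basal and cKO KCl peaks 580 and 630 bp away. Tiparp (2.92), Nr4a3 (2.92) and Fosl2, an AP-1 gene (2.90), had regions 15.3 to 35.3 kb away. Vgf, a secreted neuropeptide precursor gene, and Nr4a3 had 2 regions each, beside 1 and 2 of WT basal alone and none of either cKO list alone. Other genes of the list differed. Bdnf had 1 region, beside 0 of WT basal alone, 0 of cKO basal alone and 3 of cKO KCl alone, and Nptx2 had 1, beside 2, 0 and 2.

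Genes of calcium signalling to the nucleus, long genes with a median length of 159 kb, had a WT KCl alone region within 50 kb in 22 of 25 cases (88%, 68.8 to 97.5), where 64.9% of genes of at least 100 kb did. WT basal alone regions reached 21 of them, cKO basal alone 15 and cKO KCl alone 21. The regions of highest fold lay inside Cacna1d, an L-type calcium channel gene (chr14:30261270-30261501, 3.49), inside Hdac9, a class IIa histone deacetylase gene (chr12:34503162-34503361, 3.36), and inside Ptk7 7.85 kb from Srf (3.14). Others lay inside Cacnb4, a channel subunit gene (3.14), and 17.8 kb from Ppp3ca, the calcineurin catalytic subunit gene (3.14). Cacna1d had 3 regions, beside 12 of WT basal alone, 1 of cKO basal alone and 3 of cKO KCl alone. Camk2b, a kinase gene, had 3, beside 5, 2 and 3, and Hdac4 had 3, beside 8, 4 and 2. For Mef2a, a target of these kinases and phosphatases, there were 2 WT KCl alone regions, 0 of WT basal alone, 1 of cKO basal alone and 0 of cKO KCl alone.

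**Figure D5:**
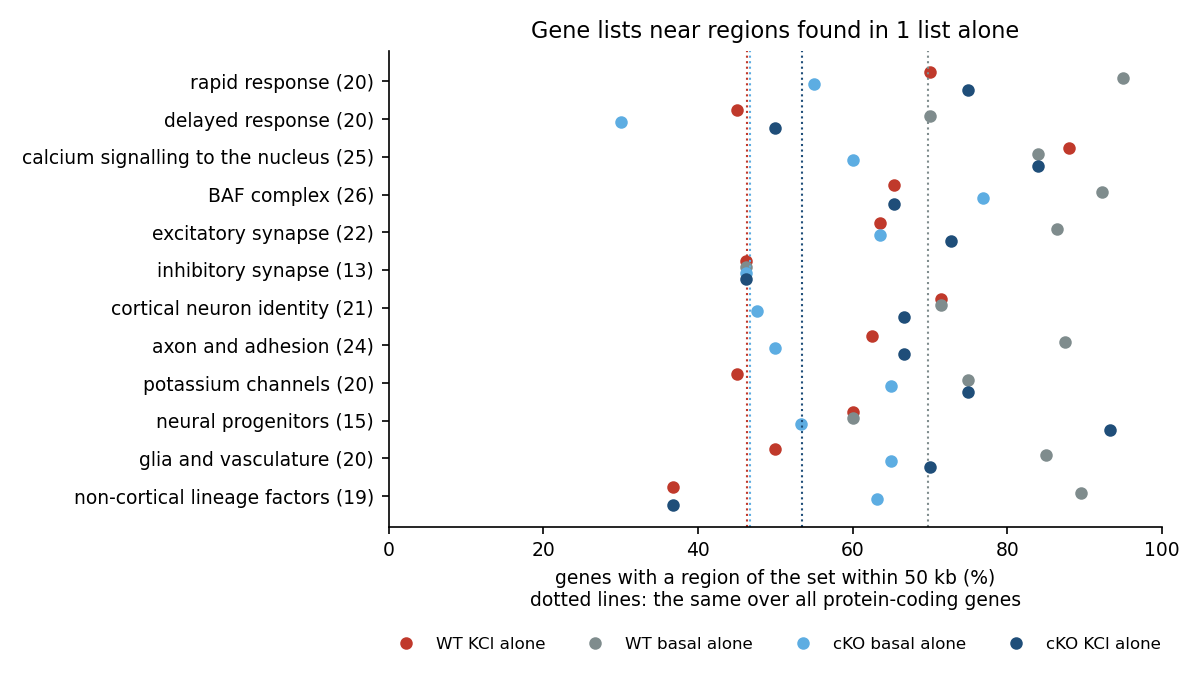
Percentage of the genes of 12 lists (number of genes in brackets) with a region of each list alone within 50 kb of the gene (x axis); dotted lines give the same share over all 20665 protein-coding genes. WT KCl alone regions (red) were near 36.8 to 88% of the genes of a list, against 46.3% of all genes.

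Genes of the BAF complex had a WT KCl alone region within 50 kb in 17 of 26 cases (65.4%, 44.3 to 82.8), against 24 for WT basal alone, 20 for cKO basal alone and 17 for cKO KCl alone. Of all protein-coding genes, 46.3% had a WT KCl alone region this near. Smarca4 itself had 1 such region, inside the gene (chr9:21632914-21633129, fold 2.86, 28 fragments), and the nearest cKO KCl peak lay 2297 bp away. Smarca4 is the floxed gene of the cKO cells, and whether the region lies in the floxed stretch is not known here. Smarca2, the other BAF ATPase, had 2, the stronger 22.2 kb away (3.36). The highest fold was 14.4 kb from Bcl11a, a BAF-associated zinc finger gene of cortical neurons (chr11:24061981-24062180, 3.68). Phf10, a subunit gene of progenitor BAF complexes, had one inside the gene (chr17:14951376-14951577, 3.57), and Actl6b, which encodes BAF53b itself, had 4, the strongest 42.2 kb away at Gigyf1 (3.37), beside 4 of WT basal alone, 1 of cKO basal alone and 0 of cKO KCl alone. Arid1b, a large DNA-binding subunit gene, had 4 inside the gene with folds from 2.60 to 3.04, beside 5 regions of WT basal alone, 6 of cKO basal alone and 8 of cKO KCl alone.

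Of 22 excitatory synapse genes 14 had a WT KCl alone region within 50 kb, against 19 for WT basal alone, 14 for cKO basal alone and 16 for cKO KCl alone. The strongest lay inside the metabotropic receptor gene Grm5 (chr7:87586669-87586868, fold 3.36) and the NMDA receptor gene Grin2a (chr16:9874249-9874486, 3.25), and 19.2 kb from the active zone gene Rims1 (3.36). One lay 41.6 kb from the AMPA receptor gene Gria1 (3.14). The excitatory and inhibitory synapse lists had median lengths of 363 and 137 kb. Of all genes of at least 100 kb, 64.9% had a WT KCl alone region within 50 kb. Shank2, a postsynaptic scaffold gene, had 4, one of them at a gene end (2.93), beside 10 of WT basal alone, 4 of cKO basal alone and 7 of cKO KCl alone. Inhibitory synapse genes had 6 of 13 with each of the 4 sets. Nlgn2, the neuroligin of inhibitory synapses, had 4 regions, beside 6, 3 and 3 in the same order, and Gphn (2.71), Gabrb1 (2.71) and Gabra5 (2.60) had regions inside the gene.

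Cortical neuron identity genes had a region in 15 of 21 cases (71.4%, 47.8 to 88.7), against 15 for WT basal alone, 10 for cKO basal alone and 14 for cKO KCl alone. Their median length was 163 kb, and 64.9% of all genes of at least 100 kb had a WT KCl alone region within 50 kb. Foxp1, a forkhead factor gene, had 6, with the strongest inside the gene (chr6:98974400-98974605, fold 3.68), beside 10 of WT basal alone, 3 of cKO basal alone and 5 of cKO KCl alone. Sox5, a factor gene of deep-layer neurons, had 5, beside 17, 3 and 6, and the upper-layer factor gene Cux1 had 4, beside 6, 5 and 6. Tle4, a corepressor gene of deep-layer neurons, had 1 inside the gene (chr19:14517756-14517973, 3.36) and no region of the other single-list sets. Neurog2, a proneural bHLH gene, had 2, the stronger inside Alpk1 39.2 kb away (3.25), and likewise none of the other sets.

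Axon and adhesion genes had 15 of 24, against 21, 12 and 16 for WT basal, cKO basal and cKO KCl alone, with the strongest regions inside Lsamp (3.57), Plxna4 (3.48), Robo1 (3.47) and Opcml (3.36) and near Ncam1 (3.57). Potassium channel genes, which set repolarisation, had 9 of 20, against 15, 13 and 15, with regions inside Kcnb2 (3.36), Kcnma1 (3.13) and Kcnq3 (2.92). Neural progenitor genes had 9 of 15, against 9, 8 and 14. A region 16.1 kb from the Notch target Hes5 (3.6) and one 1.90 kb from Pax6 (2.88) were among them. Median lengths were 407 kb for axon and adhesion genes, 237 kb for potassium channels and 9.36 kb for progenitor genes. A WT KCl alone region lay within 50 kb of 46.3% of all genes, 64.9% of those of at least 100 kb and 36.6% of those under 10 kb.

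Genes of cell types other than neurons were reached as well. Glia and vasculature genes had 10 of 20, against 17, 13 and 14 for WT basal, cKO basal and cKO KCl alone, with regions inside Pdgfra, a receptor gene of oligodendrocyte precursors (3.46), and 5 within 50 kb of Flt1, a VEGF receptor gene, beside 8, 1 and 3. Lineage factors of other organs had 7 of 19, against 17, 12 and 7, among them Myog, the muscle factor gene (3.47, 23.9 kb away), Hoxb4 (3.10, at an end of Hoxb1), Sox17 (3.03), Cdx2 (2.99) and Gata4 (2.92). Their WT KCl count was 3 of 19 with a window of 10 kb and 12 with 100 kb, where 23.6% and 62.0% of all genes had a region. Within 50 kb, 46.3% of all genes and 36.6% of genes under 10 kb had one. The lineage factor list had a median gene length of 6.33 kb.

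Gene-end peaks were counted at marker genes of cell types, and these few counts do not settle the identity of the cultures. Of all 20665 protein-coding genes, 29.4% had a region of all 4 lists at a gene end. The share of all genes with a gene-end peak in each list is not given here. In the WT KCl list 4 of 10 neuronal markers had a gene-end peak (Tubb3, Map2, Syt1 and Neurod6), against 5 in WT basal, 6 in cKO basal and 7 in cKO KCl. Of 5 astrocyte markers 1 had one (Aldoc), against 4, 1 and 1, and of 6 oligodendrocyte lineage markers 2 (Olig1 and Olig2), against 3, 3 and 2. None of 5 microglia markers had one in any list. Vascular markers had 1 of 4 (Flt1) and progenitor markers 2 of 5 (Sox2 and Vim), with 4, 2 and 3 progenitor markers in the other lists. A WT KCl alone region lay at a gene end of none of the 10 neuronal markers and of 1 progenitor marker, Sox2, a factor gene of neural stem cells (chr3:34650137-34650373, fold 2.73). Over all protein-coding genes the share was 4.23%. The Sox2 region was 33 to 127 bp from peaks of the other 3 lists and was picked out after its values were seen. The part of cell composition in the regions was not tested.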

How the data were processed

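ATAC-seq was made by the authors from 8 libraries, 2 per condition, with 7 to 9 PCR cycles and paired 75-bp reads, and 60 M reads per library, per the labels' protocols. Bowtie2 and MACS2, with the builds GRCm38 and mm10 (names of the same assembly), were used per the submitters' processing notes; no source used here gives versions, the Tn5 shift, duplicate handling or the way both libraries of a condition were pooled. The authors deposited 1 peak list per condition, with a score, a fold over local background at the summit (a ratio), and −log10 values of p-value and q-value for each peak. Each list was tied to its condition by genotype and treatment in its name. The names also hold the tag nucFree, which points to nucleosome-free fragments, so peaks and pileups may not rest on all fragments. Columns of unmatched samples were 0.

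Peaks were merged in Python 3.11.15 with pandas 2.3.3 and checked against bedtools 2.31.1. The pileup was solved from fold, taken as (pileup + 1)/(background + 1), and the Poisson p-value, and was a whole number for 100% of peaks within 0.001 in −log10 p. Reads per list are unknown. The pileups are fragments, and fragments amplified by PCR are not independent molecules. Genes came from RefSeq for GRCm38.p6, which gives gene ends without exons, so exons, introns and UTRs were not told apart. Starts were listed for 79.6% of coding genes and for none on chromosome 18. All 252 entries of 12 gene lists matched by symbol. Motifs were searched on both strands of promoter windows only, because no genome sequence was used here. Exact 95% Clopper-Pearson and Poisson intervals came from SciPy 1.17.1. The upper limits for none of 1412 peaks and none of 20 rapid response genes are not exact limits, but took 3 counts in place of 0. Regions are not replicates of a condition, so no test was run.

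The regions and the gene lists were chosen with earlier results of these data known. Genes named were those of the 10 regions of highest fold at gene ends and the 10 away from them, every region near a rapid response gene, the 5 of highest fold near each other list, the 5 regions nearest to and 5 least overlapping another list, the genes with most regions and the 5 closest pairs; 1 of these regions is not reported here. Smarca4, Arid1b, Mef2a, Sox2, Vgf, other genes named for their number of regions, and the plotted loci were added after their values were seen. Alternatives changed the merging, the q-value threshold, list lengths, the gene-end distance and the window around genes.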

Additional observations from a re-analysis of the deposited data

How the results depend on the processing

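The number of WT KCl alone regions stayed within 1.5 times of 7667 under every rule for sharing that was tried, from 6866 when peaks up to 500 bp apart were merged to 9535 when sharing needed a reciprocal overlap of 50%. The median pileup was 27 in each. Of the 100 named entries 83 remained after 500-bp merging and 97 when peaks were matched by summits within 250 bp. The gene-end share moved more: from 10.6% it went to 7.72% with 500-bp merging, 12% with summits, 18.6% with reciprocal overlap and 11.8% with lists cut to equal length, and to 7.15% and 15.4% when a gene end meant within 500 bp or 2 kb. The share within 1 kb of another list, 14.4%, became 4.73%, 17.2%, 31.2% and 11.5% under the first 4 of these. By construction, merging absorbs regions near other peaks and a reciprocal overlap adds partly overlapping ones. With a window of 10 kb, 3 rapid response, 5 delayed response, 9 excitatory synapse, 5 progenitor, 5 glia and vasculature and 3 non-cortical lineage genes had a region, and with 100 kb 12 non-cortical lineage genes did, beside 23.6% and 62.0% of all genes. The other 49 values tried stayed within 1.5 times or within their interval. No paired analysis was possible because the lists hold no values per library, and for the same reason no library could be left out. A search for motifs in windows around summits was not run, since no genome sequence of the build was used here. Depth limits what absence from a list can show. In 9.68% of the regions the lower limit of the pileup was above the highest entry level of the other lists. That level holds at their most frequent background and is higher where the local background is raised.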

Other observations

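The 4 gene-end regions given here were picked after their values were seen and are outside the rule for named genes. Racgap1, a GTPase-activating protein gene of the central spindle, had a region at its start (chr15:99651515-99651838) with a fold of 3.65 and 39 fragments, and the nearest peaks of the other lists lay 12210 bp (WT basal), 36314 bp (cKO basal) and 50169 bp (cKO KCl) away. Depdc1a (chr3:159495249-159495459) had a fold of 3.36 and 30 fragments, with no other list's peak within 43484 bp. Knl1, a kinetochore gene (chr2:119047108-119047327), also had 3.36 and 30 fragments, with the nearest other peak 3750 bp away. Plk4, the kinase gene of centriole duplication (chr3:40799855-40800139), had 3.25 and 29 fragments, but cKO KCl and WT basal peaks lay 48 and 95 bp away. They are single sites and stand for no group of genes.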
